A study of Homo sapiens with 24 samples.

Results

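Construct 2, one of 2 siRNAs against the nucleoporin POM121, was compared with the control treatment in 22Rv1DR cells. The comparison rests on 8 of the 24 samples: 4 with siPOM121 construct 2 (Silencer Select s19145 in the labels) and 4 labelled Control, with no further word on what the control cells received. These 8 samples are 4 libraries read on 2 lanes each. Libraries 4C and 5C are the construct 2 libraries and 4A and 5A the control libraries. Lanes of a library were averaged, so that n is 2 libraries per group throughout. Where a library has a pair of values below, they are those of its lanes. No label tells whether libraries 4 and 5 are separate cultures. Each p-value is therefore set only against how far libraries of a group differ, over all 12 libraries of the series. The spread between cultures is not known. 22Rv1DR is an aggressive subline of 22Rv1, a human prostate cancer cell line, and both groups are in that background. The title of the series speaks of a knockout, but the agent is an siRNA, which lowers a transcript and does not remove the gene. Poly(A) RNA was sequenced with a TruSeq kit that does not mark strand, and the deposited values are log2 FPKM (sequenced fragments scaled by transcript length and library size). Anything not above 1 FPKM is listed as 0. The other 16 samples (construct 1 in 22Rv1DR, and all 3 treatments in DU145DR, a subline of DU145 prostate cancer cells) entered the estimate of the spread and the filter on low values that chose the symbols tested.

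POM121 spans the nuclear membrane and anchors the nuclear pore complex, the channel through which importins and exportins carry proteins in and out of the nucleus. Cells that prepare to divide load the MCM2-7 helicase on replication origins, and the genes for that machinery are switched on together by E2F factors. Immediate early genes, such as FOS, JUN and EGR1, are transcribed within minutes of a stimulus and need no new protein for it. Ribosome biogenesis genes, many of them direct targets of MYC, set how fast a cell can make ribosomes.

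The cells carried the markers of their line. FOXA1, HOXB13, KRT8, KRT18 and EPCAM were above 30 FPKM in all 4 libraries, while VIM, AXL, CD44, KRT5, KRT17, IL6 and S100A2 of the DU145 list were listed at 0 on all 8 lanes and CAV1 stood at 1.95 FPKM in 4C and 2.37 in 5C, against 2.27 in 4A and 2.19 in 5A. Of 10 markers of 22Rv1 KLK2 was called (lower). KLK3, the gene of prostate-specific antigen, was low, at 1.08 FPKM in 4C and 1.40 in 5C, against 2.23 in 4A and 1.73 in 5A. Its lanes in 4C were listed at 1.17 FPKM and at 0, so the value of 4C is uncertain. Of 24 markers of stromal, endothelial, blood and neural cells, 7 were tested and 0 were called. Among them, HBA1 and HBA2 (nearly identical alpha-globin genes, whose split is uncertain) made up most of the summed level of 1927 FPKM in 4C and 2199 in 5C, against 2185 in 4A and 2213 in 5A. The stromal marker LUM stood at 45.96 FPKM in 4C and 55.3 in 5C, against 42.6 in 4A and 42.6 in 5A, COL1A1 at 8.95 FPKM in 4C and 8.31 in 5C, against 8.24 in 4A and 8.47 in 5A, and the neural marker MBP at 6.22 FPKM in 4C and 7.41 in 5C, against 7.10 in 4A and 6.96 in 5A. ACTA2 and CD68, the other 2 tested, lay between 1.61 and 3.85 FPKM. PTPRC, CD3E, PECAM1, VWF and HBB were listed at 0. The part of other cell types in the results was not tested.

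The depth of the libraries is unknown. Samples had 12361 to 12540 symbols above the floor with construct 2 and 12459 to 12489 in controls. The 2 construct 2 libraries differed from each other more than the pair of any other group. Over 9008 well expressed genes, the median absolute difference on the log2 scale was 0.160 between 4C and 5C and 0.0524 between 4A and 5A. In the other 4 groups of the series it was 0.0411 to 0.0576. Lanes of one library differed by 0.0383 to 0.0546 in the 4 libraries compared here and by up to 0.0768 in the series. In every group but construct 2, libraries thus differed about as much as lanes of one library. Because 4C and 5C differed more, each group was given its own weight in the fit (0.175 for construct 2 and 1.21 for control). Each library is also described on its own. The spread of a gene was estimated over all 6 groups. The weight widens it for construct 2 by 1 factor shared by all genes. Lanes 1 and 2 held 4A, while 4C, 5C and 5A shared lanes 3 and 4. Without 4A the comparison is thus made within 1 pair of lanes.

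In what follows, a value written as x ± y is a log2 fold change of construct 2 over control with its SE from limma, fitted to all 12 libraries. The targeted transcript was lower in both construct 2 libraries. POM121 stood at 6.67 and 6.79 FPKM in 4C and 7.42 and 7.44 in 5C, against 39.1 and 37.9 in 4A and 37.5 and 38.2 in 5A. The groups did not overlap, with both libraries below both controls as for 34.5% of all symbols tested. Construct 2 left 18.5% of the control level (-2.43 ± 0.08, adjusted p = 1.89e-07). In a limma fit of these 4 libraries alone and without group weights, where no gene was called, the adjusted p of POM121 was 0.0596. POM121C, a close duplicate of the POM121 gene, stood at 3.94 and 4.15 FPKM in 4C and 4.65 and 4.62 in 5C, against 26.6 and 26.1 in 4A and 26.4 and 27.7 in 5A (-2.62 ± 0.10, adjusted p = 2.53e-07). Reads of these 2 genes are hard to assign to one or the other, and their values are uncertain for that reason.

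**Figure D1:**
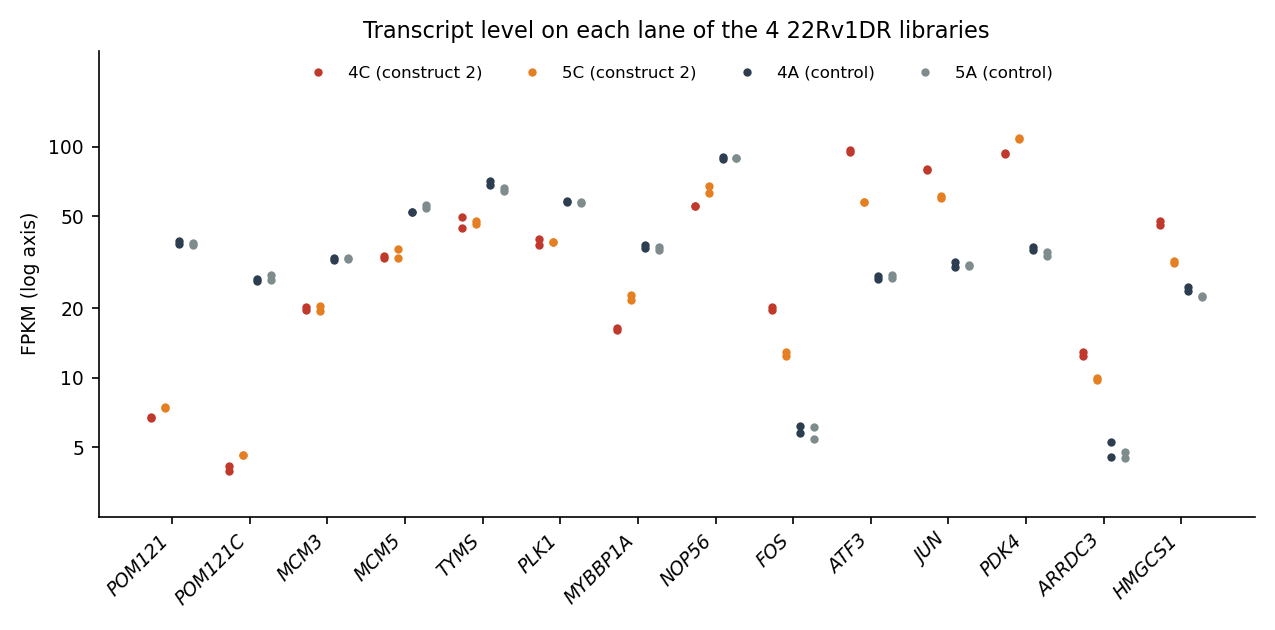
FPKM (log axis) on each lane of the construct 2 libraries 4C and 5C and of the control libraries 4A and 5A, for 14 genes described in the text; each point is 1 lane. Lanes of a library lie close together. POM121, POM121C, MCM3, MCM5, TYMS, PLK1, MYBBP1A and NOP56 are lower with construct 2, and FOS, ATF3, JUN, PDK4, ARRDC3 and HMGCS1 higher.

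A gene rose, fell or was called where its Benjamini-Hochberg adjusted p was under 0.05. Of 13622 symbols tested (914 of them listed at 0 in all 4 libraries compared), 1532 differed between construct 2 and control (11.2%), 614 higher (4.51%) and 918 lower (6.74%). With quantile normalization 50.6% of the calls were higher, against 40.1% in these counts. With 22Rv1DR libraries alone and no group weights 56.2% were. Most changes were small: 46 genes rose and 11 fell at least 2-fold, and 830 of the called genes differed by less than 0.5 on the log2 scale. In all 1532 cases both construct 2 libraries lay on the same side of both controls, which was true of 25.0% (higher) and 34.5% (lower) of all symbols tested. The difference from controls was larger in 4C for 1176 of the called genes and larger in 5C for 351. Counts of list members below are read against these shares of all symbols, 4.51% higher and 6.74% lower. These shares include the symbols listed at 0. Among genes of at least 5 FPKM, 4.59% to 6.02% were called higher and 0.962% to 10.8% lower, depending on transcript length. Well expressed lists can thus exceed the shares of all symbols for that reason alone. The lists were also chosen with earlier results of these data known. With 1 library left out fewer genes were called over all symbols too, so a smaller list count there need not be particular to the list. The counts depend on how the spread is estimated. With 1 spread shared by all 6 groups 4783 genes were called (35.1%). With only the 4 libraries of the comparison, also without group weights, limma called 0, with 3376 at an unadjusted p under 0.05. Without 4C, 68 genes were called higher (0.499%) and 131 lower (0.962%); without 5C, 302 (2.22%) and 769 (5.65%); without 5A, 407 (2.99%) and 476 (3.49%).

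**Figure D2:**
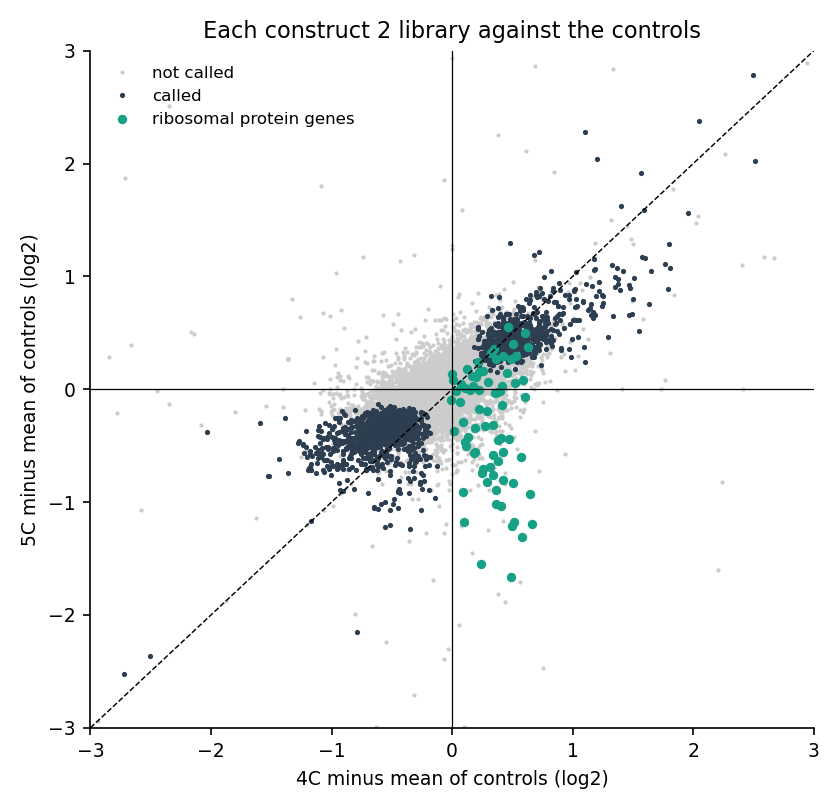
Difference of library 4C (x axis) and of library 5C (y axis) from the mean of both controls, on the log2 scale, for the 13622 symbols tested, with the 1532 called genes in dark and 75 ribosomal protein genes in green; 24 symbols lie beyond the axes. The called genes fall in the quadrants where both libraries differ the same way, while most ribosomal protein genes lie to the right in 4C and many lie below 0 in 5C.

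Among the well expressed genes, those that rose most with construct 2 included 6 of the immediate early list, described further on. PDK4, a kinase that holds pyruvate dehydrogenase inactive, stood at 92.9 and 93.6 FPKM in 4C and 108 and 109 in 5C, against 35.7 and 36.9 in 4A and 35.1 and 33.6 in 5A (1.51 ± 0.10, adjusted p = 5.47e-05). Both libraries were above both controls, as for 25.0% of all symbols tested, and 5C was the higher one. SEC22C, a protein of vesicle transport between endoplasmic reticulum and Golgi, stood at 18.5 FPKM in 4C and 18.6 in 5C, against 6.34 in 4A and 5.98 in 5A (1.59 ± 0.12, adjusted p = 0.000109). Other members of this group were SIK1, a salt-inducible kinase (1.35 ± 0.16), ARRDC3, an arrestin-domain protein that lowers surface receptors (1.23 ± 0.12), CDKN1C, an inhibitor of cyclin-dependent kinases (1.21 ± 0.23), HILPDA, a lipid droplet protein induced by hypoxia (1.19 ± 0.20), and SPX, the peptide hormone spexin (1.19 ± 0.16). Of these 7 genes HILPDA differed most between libraries: it stood at 109 FPKM in 4C and 59.3 in 5C, against 35.9 in 4A and 34.3 in 5A.

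Among the genes that fell most after POM121 and POM121C was NCOA5, a coregulator of nuclear receptors, at 3.84 and 3.59 FPKM in 4C and 6.21 and 6.41 in 5C, against 10.8 and 10.4 in 4A and 10.4 and 11.3 in 5A (-1.15 ± 0.16, adjusted p = 0.0038). MYBBP1A, a nucleolar protein that binds RNA polymerase I, stood at 16.05 and 16.5 FPKM in 4C and 22.9 and 21.7 in 5C, against 36.5 and 37.5 in 4A and 36.7 and 35.9 in 5A (-0.95 ± 0.12, adjusted p = 0.00253). METTL1, which methylates transfer RNA, fell by a similar amount, to 15.2 FPKM in 4C and 20.8 in 5C, against 33.8 in 4A and 34.5 in 5A (-0.94 ± 0.11). SFPQ, a splicing factor of paraspeckles, was at 44.4 FPKM in 4C and 55.8 in 5C, against 95.7 in 4A and 89.9 in 5A (-0.90 ± 0.10), and HNRNPM, which regulates splicing, at 75.1 FPKM in 4C and 116 in 5C, against 171 in 4A and 169 in 5A (-0.86 ± 0.13). TRMT6, a subunit of a transfer RNA methyltransferase, was much further from controls in 4C than in 5C: it was at 4.80 FPKM in 4C and 11.8 in 5C, against 15.1 in 4A and 13.9 in 5A (adjusted p = 0.0416). KIF4A, a chromosome-bound kinesin, was lower in 5C than in 4C (9.74 FPKM in 4C and 6.17 in 5C, against 14.4 in 4A and 14.3 in 5A), and so was CDK5RAP3 (25.3 FPKM in 4C and 15.7 in 5C, against 35.1 in 4A and 37.2 in 5A). COLCA1 (-0.94 ± 0.11), ZC3H4 (-0.89 ± 0.20), LCMT2 (-0.87 ± 0.16), WDR81 (-0.86 ± 0.19) and DPP10-AS1 (-0.89 ± 0.17) complete the list; DPP10-AS1 is an antisense transcript, and the libraries do not keep strand, so its reads cannot be told from those of its partner.

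Genes of origin licensing and of the replication fork fell with construct 2. Of 42 measured members 29 fell, 1 rose and 12 did not pass, and the list's median log2 fold change was -0.53, against -0.03 over all genes tested. The median was -0.48 in 4C and -0.52 in 5C, so that this list differed from controls by nearly the same amount in each library. Counts of members that fell were 9 without 4C, 15 without 5C, 27 without 4A and 27 without 5A. All MCM2-7 subunits fell. MCM3 stood at 20.3 and 19.7 FPKM in 4C and 19.4 and 20.5 in 5C, against 32.9 and 32.5 in 4A and 32.6 and 32.8 in 5A (-0.71 ± 0.08, adjusted p = 0.0022). MCM5 stood at 33.1 and 33.8 FPKM in 4C and 35.99 and 32.98 in 5C, against 52.1 and 52.3 in 4A and 54.3 and 55.7 in 5A (-0.66 ± 0.09, adjusted p = 0.00313). For both genes the lanes of 4C and 5C interleave. Both libraries were under both controls, as for 34.5% of all symbols tested. MCM2 fell to 61.8% of control (-0.70 ± 0.09), MCM7 to 63.5% (-0.65 ± 0.10), MCM4 to 68.4% (-0.55 ± 0.07) and MCM6 to 74.04% (-0.43 ± 0.08).

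Factors that load or fire the helicase fell too: ORC1 of the origin recognition complex (-0.53 ± 0.11), the loader CDC6 (-0.38 ± 0.08), MCM10 (-0.45 ± 0.08), CDC45 (-0.53 ± 0.10), and GINS3 and GINS4 of the GINS complex (-0.60 ± 0.14 and -0.77 ± 0.11). CDT1, the partner of CDC6, did not pass (-0.15 ± 0.12, adjusted p = 0.454). GMNN, the inhibitor that keeps CDT1 from loading a second helicase, was the member that rose, at 98.2 FPKM in 4C and 88.6 in 5C, against 77.7 in 4A and 71.7 in 5A (0.32 ± 0.09). Of the polymerases and their helpers, POLA1 (-0.61 ± 0.10), POLA2, POLD1, POLD2, POLE (-0.58 ± 0.09) and POLE2 fell, as did the flap nuclease FEN1, at 28.3 FPKM in 4C and 32.96 in 5C, against 51.6 in 4A and 52.9 in 5A (-0.77 ± 0.11), and the ligase LIG1 (-0.61 ± 0.09). PCNA, the sliding clamp, stood at 164 FPKM in 4C and 148 in 5C, against 205 in 4A and 194 in 5A and did not pass (adjusted p = 0.146), nor did the clamp loader subunits RFC2, RFC3, RFC4 and RFC5. DNMT1, which copies DNA methylation after replication, had the smallest p of the list and stood at 28.1 and 27.7 FPKM in 4C and 30.01 and 29.8 in 5C, against 45.6 and 45.7 in 4A and 45.8 and 45.3 in 5A (-0.66 ± 0.08, adjusted p = 0.00217). Its partner UHRF1 stood at 7.59 FPKM in 4C and 7.60 in 5C, against 11.5 in 4A and 11.7 in 5A (-0.61 ± 0.08), and the histone chaperone CHAF1A at 17.9 FPKM in 4C and 18.2 in 5C, against 27.2 in 4A and 27.9 in 5A (-0.61 ± 0.08).

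**Figure D3:**
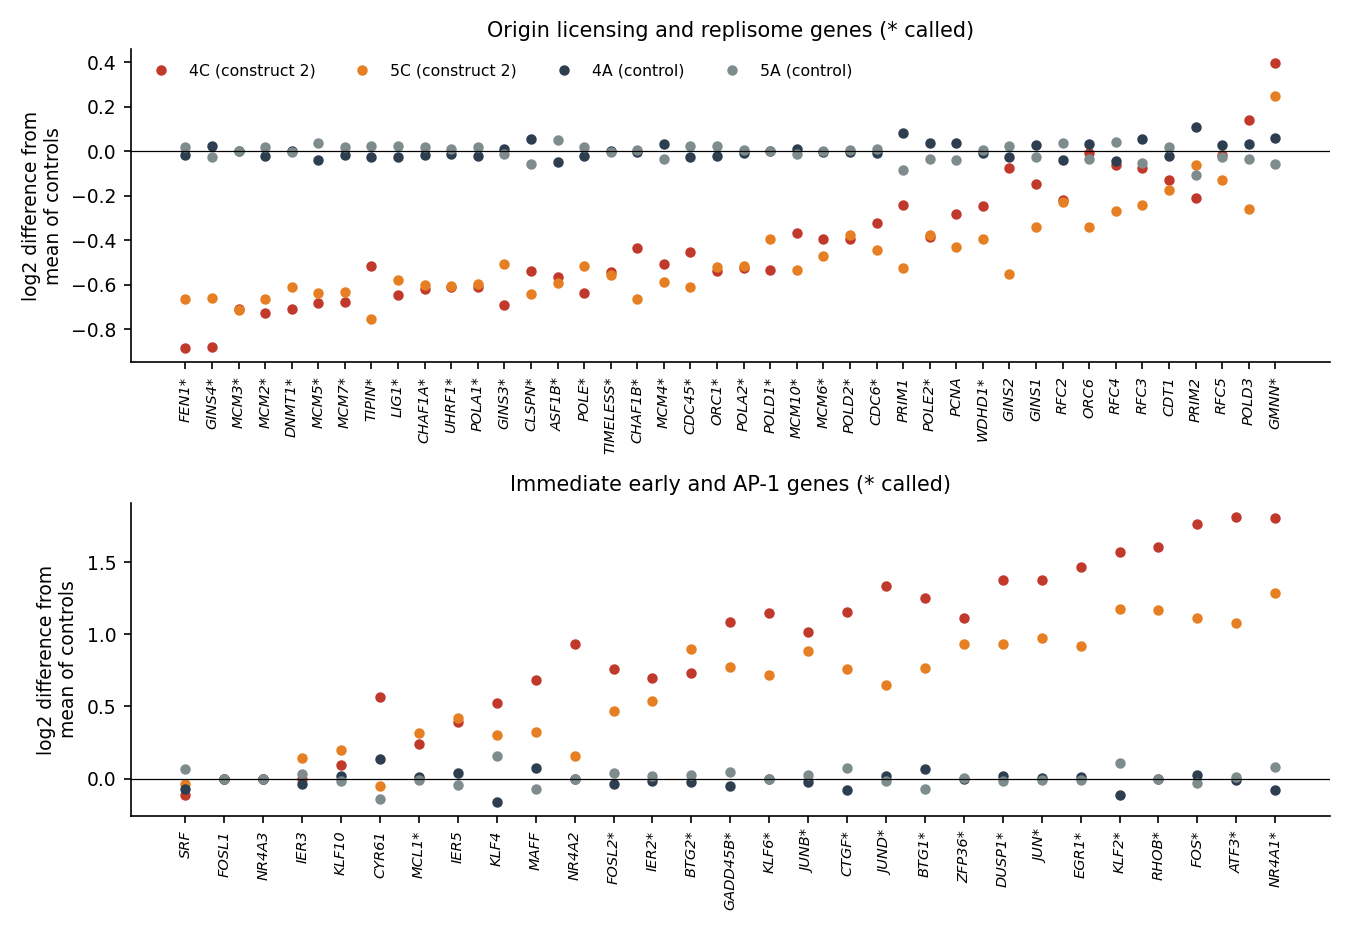
Log2 difference from the mean of both controls (y axis) of each library for the tested members of the origin licensing and replisome list (top) and of the immediate early list (bottom), ordered by fold change; stars mark called genes. In the top panel 4C and 5C lie close together below 0 for most genes, and in the bottom panel 4C lies above 5C for most genes that rose.

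Promoters of 3 replisome genes that fell are shown because they hold the E2F motif: the members with the smallest p among those with a match on the chromosomes printed here. The motif was searched as TTTCGCGC or TTTGGCGC on both strands (the match on the other strand reads GCGCGAAA or GCGCCAAA) in the 250 bases before the start of each gene, from RefSeq, build GRCh38.p14, which is not the build of the expression values. The sequences are in gene direction and end at the base before the start; capitals mark the match.
UHRF1 (chr19:4909894-4910143, plus strand): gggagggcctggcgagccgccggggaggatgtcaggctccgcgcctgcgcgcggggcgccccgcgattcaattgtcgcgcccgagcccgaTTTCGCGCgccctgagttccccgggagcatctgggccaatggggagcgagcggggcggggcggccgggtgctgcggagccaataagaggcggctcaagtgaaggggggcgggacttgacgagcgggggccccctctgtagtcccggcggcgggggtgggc
MCM7 (chr7:100101398-100101647, minus strand): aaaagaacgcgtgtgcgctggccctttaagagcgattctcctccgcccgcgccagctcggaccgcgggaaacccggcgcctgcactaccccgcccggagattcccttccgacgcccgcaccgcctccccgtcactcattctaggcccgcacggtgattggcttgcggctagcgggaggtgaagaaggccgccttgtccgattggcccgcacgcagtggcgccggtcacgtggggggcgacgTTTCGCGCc
POLE (chr12:132687343-132687592, minus strand): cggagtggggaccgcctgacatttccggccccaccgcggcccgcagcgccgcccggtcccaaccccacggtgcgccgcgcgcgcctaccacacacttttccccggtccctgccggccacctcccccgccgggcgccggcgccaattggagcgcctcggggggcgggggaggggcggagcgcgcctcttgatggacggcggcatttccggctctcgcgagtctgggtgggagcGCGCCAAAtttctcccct
The match begins 160 bases before the start in UHRF1, 9 bases before it in MCM7 and 18 in POLE, where it lies on the other strand. Of the 38 tested replisome genes with a promoter in the table, 8 held such a match (21.1%), against 1.2% of 27305 genes with promoters and 2.01% of the tested symbols with one. Among the 26 that fell 7 held it (26.9%), and so did the 1 that rose. Among mitosis genes 1 of 40 held it. Since replication genes are known to be switched on by E2F factors, the replisome share describes the list and no effect of construct 2. A match describes the letters of the window and shows no binding.

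Genes of nucleotide synthesis, which supplies the fork, also fell: 13 of 27 members fell and 1 rose (median -0.29). The counts that fell were 3 without 4C, 7 without 5C, 10 without 4A and 10 without 5A. MTHFD1, a folate enzyme of purine and thymidylate synthesis, stood at 29.3 and 30.2 FPKM in 4C and 22.4 and 22.8 in 5C, against 46.6 and 46.3 in 4A and 47.1 and 46.6 in 5A (-0.85 ± 0.10, adjusted p = 0.00217). TYMS, which makes thymidylate, stood at 46.9 FPKM in 4C and 47.04 in 5C, against 69.4 in 4A and 65.2 in 5A (-0.52 ± 0.07), and CAD, which starts pyrimidine synthesis, at 11.3 FPKM in 4C and 13.6 in 5C, against 19.1 in 4A and 20.03 in 5A (-0.66 ± 0.10). RRM1, a subunit of ribonucleotide reductase, fell by a smaller amount (-0.37 ± 0.07), and its partner RRM2 did not pass (-0.16 ± 0.13, adjusted p = 0.455). PRPS2, which makes the ribose phosphate donor of nucleotides, rose and stood at 817 FPKM in 4C and 753 in 5C, against 602 in 4A and 577 in 5A (0.41 ± 0.08).

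Regulators of the cycle moved in both directions. Of 34 E2F factors, pocket proteins, cyclins, CDKs and inhibitors, 3 rose and 6 fell (median -0.11), against 4.51% and 6.74% of all genes. E2F1 itself stood at 17.8 and 17.8 FPKM in 4C and 16.3 and 15.4 in 5C, against 20.7 and 20.7 in 4A and 21.8 and 22.9 in 5A. Both construct 2 libraries were below both controls, as for 34.5% of all symbols tested, but the difference did not pass (-0.36 ± 0.10, adjusted p = 0.0525). TFDP1, the partner with which E2F factors bind DNA, fell to 38.9 FPKM in 4C and 35.6 in 5C, against 58.9 in 4A and 56.6 in 5A (-0.63 ± 0.07), and E2F3 (-0.83 ± 0.12), E2F4 (-0.55 ± 0.09) and E2F8 (-0.62 ± 0.15) fell as well. CDK4 (-0.38 ± 0.08) and the phosphatase CDC25B (-0.29 ± 0.08) also fell. The members that rose were CDK inhibitors: CDKN1A, a target of p53, at 104 FPKM in 4C and 107 in 5C, against 71.4 in 4A and 75.5 in 5A (0.52 ± 0.10), CDKN1C at 12.1 FPKM in 4C and 10.4 in 5C, against 5.30 in 4A and 4.41 in 5A, and CDKN2B at 4.05 FPKM in 4C and 3.43 in 5C, against 2.05 in 4A and 2.24 in 5A (0.80 ± 0.19). Cyclins of S phase entry did not pass: CCNE1 was at 0.18 ± 0.13 and CCNE2 at 0.07 ± 0.18. Cycle regulator calls, higher and lower, were 0 and 2 without 4C and 1 and 4 without 5C.

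In the mitosis list 24 of 47 members fell and 0 rose, with a median of -0.31 (-0.27 in 4C and -0.33 in 5C). Counts were 6 without 4C, 8 without 5C, 18 without 4A and 16 without 5A. ZWINT, a kinetochore protein, stood at 58.2 FPKM in 4C and 55.8 in 5C, against 93.5 in 4A and 89.7 in 5A (-0.68 ± 0.08). PLK1, a kinase of mitotic entry, stood at 39.9 and 37.5 FPKM in 4C and 38.7 and 38.8 in 5C, against 57.6 and 58.2 in 4A and 56.9 and 57.5 in 5A (-0.57 ± 0.08, adjusted p = 0.00346), with both libraries at the same level. The transcription factors of the mitotic program fell too, FOXM1 to 28.7 FPKM in 4C and 31.3 in 5C, against 45.7 in 4A and 47.5 in 5A (-0.64 ± 0.09) and MYBL2 to 22.5 FPKM in 4C and 23.9 in 5C, against 35.6 in 4A and 36.1 in 5A (-0.63 ± 0.09). The condensin subunits NCAPH (-0.58 ± 0.09) and NCAPG (-0.44 ± 0.09), the centromere proteins CENPF (-0.55 ± 0.09) and CENPE (-0.51 ± 0.13), and MKI67, the gene of the proliferation marker Ki-67 (-0.40 ± 0.11), also fell. BIRC5, or survivin, did not pass (-0.25 ± 0.07, adjusted p = 0.0559). Of 35 genes of homologous recombination, the Fanconi pathway and checkpoints, 6 fell and 0 rose (median -0.18), against 6.74% and 4.51% of all genes. BRCA1 stood at 8.73 FPKM in 4C and 9.41 in 5C, against 13.98 in 4A and 14.1 in 5A (-0.63 ± 0.09), and FANCD2 at 8.27 FPKM in 4C and 8.49 in 5C, against 12.3 in 4A and 12.4 in 5A (-0.56 ± 0.10). Repair calls, higher and lower, were 0 and 0 without 4C, 0 and 2 without 5C and 0 and 3 without 5A.

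Ribosome biogenesis genes fell with construct 2, with a lower median in 4C than in 5C. Of 51 MYC targets and ribosome biogenesis genes, 29 fell and 0 rose, with a median of -0.37 (-0.47 in 4C and -0.24 in 5C). Counts that fell were 3 without 4C, 25 without 5C, 23 without 4A and 17 without 5A. NOP56, a core protein of the small nucleolar particles that methylate ribosomal RNA, stood at 55.3 and 55.4 FPKM in 4C and 67.5 and 63.1 in 5C, against 88.4 and 90.2 in 4A and 89.6 and 89.3 in 5A (-0.57 ± 0.08, adjusted p = 0.00313). UTP14A, of the small subunit processome, stood at 8.05 FPKM in 4C and 8.44 in 5C, against 14.2 in 4A and 15.3 in 5A (-0.84 ± 0.12), and NCL, nucleolin, at 208 FPKM in 4C and 221 in 5C, against 299 in 4A and 289 in 5A (-0.46 ± 0.07). TCOF1 (-0.62 ± 0.10) and POLR1A and POLR1B (-0.52 ± 0.10 and -0.43 ± 0.12), which serve transcription of ribosomal DNA, fell, as did PES1 and BOP1 (-0.66 ± 0.11 and -0.45 ± 0.11), partners in making the large subunit. MYC itself stood at 55.7 and 57.1 FPKM in 4C and 79.2 and 78.4 in 5C, against 86.3 and 85.9 in 4A and 85.98 and 88.8 in 5A. Its level was lower in 4C (-0.62 from the mean of controls on the log2 scale) and near controls in 5C (-0.14), and the mean difference did not pass (-0.38 ± 0.13, adjusted p = 0.0852).

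RNA-binding factors of splicing had 12 of 34 members lower and 3 higher (median -0.14), against 6.74% and 4.51% of all genes. SRSF1, an activator of exon inclusion, stood at 22.7 FPKM in 4C and 25.7 in 5C, against 37.8 in 4A and 35.5 in 5A (-0.60 ± 0.09), SRSF3 at 53.3 FPKM in 4C and 46.5 in 5C, against 76.1 in 4A and 72.2 in 5A (-0.57 ± 0.09) and PTBP1, a repressor of exons, at 82.5 FPKM in 4C and 87.6 in 5C, against 122 in 4A and 122 in 5A (-0.52 ± 0.08). U2AF1, which reads the 3' splice site, was lower in 5C than in 4C (91.5 FPKM in 4C and 49.5 in 5C, against 115 in 4A and 119 in 5A). The kinases of SR proteins CLK1 (0.48 ± 0.12) and CLK4 (0.64 ± 0.15) rose, as did SRSF4 (0.27 ± 0.07). Splicing factor calls, higher and lower, were 0 and 5 without 4C, 1 and 9 without 5C, 0 and 11 without 4A and 0 and 10 without 5A.

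Other parts of the pore and of the transport system changed by less than POM121. Of 30 other nucleoporins 6 fell and 0 rose (median -0.20), against 6.74% and 4.51% of all genes. Those that fell were NUP188, NUP85, NUP62, NUP93, NUP214 and GLE1. NUP188, of the inner ring, stood at 27.6 FPKM in 4C and 31.3 in 5C, against 40.4 in 4A and 40.8 in 5A (-0.47 ± 0.08), and NUP62, of the central channel, at 28.3 FPKM in 4C and 33.8 in 5C, against 42.5 in 4A and 41.4 in 5A (-0.44 ± 0.10). Nucleoporin calls, higher and lower, were 0 and 0 without 4C and 0 and 3 without 5A. Among 30 importins, exportins and Ran cycle genes 7 fell and 2 rose (median -0.21), against 6.74% and 4.51% of all genes. KPNB1, the importin that carries cargo bound to importin alpha, stood at 80.6 FPKM in 4C and 88.4 in 5C, against 116 in 4A and 114 in 5A (-0.45 ± 0.07). IPO4 (-0.62 ± 0.10) and RCC1, which charges Ran with GTP (-0.51 ± 0.13), fell, and the importin alpha genes KPNA3 (0.39 ± 0.08) and KPNA5 (1.04 ± 0.23) rose. Transport factor calls, higher and lower, were 0 and 1 without 4C, 0 and 6 without 5C and 2 and 3 without 5A. Of 16 genes of the lamina and its links to the cytoskeleton, LMNB1, LMNB2 and TMPO fell and 0 rose (median -0.13). LMNB2, a B-type lamin, stood at 46.1 FPKM in 4C and 57.1 in 5C, against 73.6 in 4A and 74.6 in 5A (-0.53 ± 0.09). Lamina calls, higher and lower, were 0 and 0 without 4C.

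Immediate early genes rose with construct 2. Of 29 measured members 19 rose, 0 fell and 10 did not pass, with a median log2 fold change of 0.93 (1.02 in 4C and 0.72 in 5C). Counts that rose were 10 without 4C, 17 without 5C, 18 without 4A and 17 without 5A. FOS, which pairs with JUN in the AP-1 factor, stood at 19.7 and 20.2 FPKM in 4C and 12.9 and 12.5 in 5C, against 5.78 and 6.19 in 4A and 6.14 and 5.42 in 5A (1.44 ± 0.17, adjusted p = 0.00229). JUN stood at 79.2 and 80.2 FPKM in 4C and 59.8 and 61.2 in 5C, against 30.1 and 31.8 in 4A and 30.7 and 30.6 in 5A (1.17 ± 0.11, adjusted p = 0.000553). ATF3, a stress-induced factor of the same protein class, stood at 96.3 and 94.9 FPKM in 4C and 57.5 and 57.6 in 5C, against 26.6 and 27.6 in 4A and 27.1 and 27.9 in 5A (1.44 ± 0.14, adjusted p = 0.000929). Both construct 2 libraries were above both controls for these 3 genes, as for 25.0% of all symbols tested. In each of the 3, 4C was above 5C. NR4A1, an orphan nuclear receptor, stood at 24.6 FPKM in 4C and 17.2 in 5C, against 6.68 in 4A and 7.46 in 5A (1.55 ± 0.17), RHOB, a small GTPase, at 87.9 FPKM in 4C and 64.8 in 5C, against 28.9 in 4A and 28.9 in 5A (1.38 ± 0.12), and EGR1, a zinc finger factor, at 38.8 FPKM in 4C and 26.6 in 5C, against 14.2 in 4A and 13.9 in 5A (1.19 ± 0.18).

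JUNB (0.95 ± 0.11), JUND (0.99 ± 0.14), KLF6 (0.93 ± 0.11) and KLF2 (1.37 ± 0.26) rose, and so did genes that end the response: ZFP36, which degrades messages with AU-rich elements (1.02 ± 0.10), and DUSP1, a phosphatase of MAP kinases (1.15 ± 0.11). BTG2, an antiproliferative gene, was among the few with 5C above 4C (16.1 FPKM in 4C and 18.1 in 5C, against 9.57 in 4A and 9.91 in 5A). Members that did not pass included MAFF (0.51 ± 0.16) and SRF (-0.08 ± 0.10), and FOSL1 and NR4A3 were listed at 0 in all 4 libraries.

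Promoters of 3 of these genes are shown for their cyclic AMP response element, TGACGTCA, or their CArG box, the site of serum response factor: the called members with the smallest p that hold one. Sequences are as above, with matches in capitals.
DUSP1 (chr5:172771196-172771445, minus strand): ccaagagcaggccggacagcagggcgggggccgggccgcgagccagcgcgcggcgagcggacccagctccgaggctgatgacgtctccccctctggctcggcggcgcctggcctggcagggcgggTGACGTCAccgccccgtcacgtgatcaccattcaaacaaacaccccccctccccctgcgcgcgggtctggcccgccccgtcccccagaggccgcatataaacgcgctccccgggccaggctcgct
JUND (chr19:18281623-18281872, minus strand): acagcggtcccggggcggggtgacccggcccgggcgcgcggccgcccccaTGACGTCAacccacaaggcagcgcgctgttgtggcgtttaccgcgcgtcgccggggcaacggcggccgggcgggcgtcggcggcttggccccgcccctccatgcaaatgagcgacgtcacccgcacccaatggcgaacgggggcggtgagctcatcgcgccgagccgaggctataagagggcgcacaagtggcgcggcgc
EGR1 (chr5:138465229-138465478, plus strand): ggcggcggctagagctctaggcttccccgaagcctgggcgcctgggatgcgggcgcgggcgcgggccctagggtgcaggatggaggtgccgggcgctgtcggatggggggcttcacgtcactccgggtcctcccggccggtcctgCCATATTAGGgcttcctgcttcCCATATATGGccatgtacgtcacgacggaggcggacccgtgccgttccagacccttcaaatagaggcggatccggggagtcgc
The element begins 125 bases before the start in DUSP1 and 200 in JUND, and EGR1 has 2 CArG boxes, 105 and 83 bases before it. Of the 22 tested immediate early genes with a promoter in the table, 3 held TGACGTCA (13.6%, against 2.03% of all 27305 genes and 3.45% of the tested symbols) and 2 a CArG box (9.09%, against 1.44% and 1.43%). Among the 17 that rose, 2 held TGACGTCA (11.8%) and 1 a CArG box (5.88%). The letters TGAGTCA, on either strand, were in 0 of these 22 windows and in 5.19% of all and 3.89% of the tested symbols.

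Smaller lists tied to these pathways held fewer calls. Of 21 MAP kinase feedback genes and PEA3 factors 3 rose and 1 fell, against 4.51% and 6.74% of all genes. The median was 0.25, with lower medians of 0.18 in 4C and 0.20 in 5C alone. DUSP5, a nuclear phosphatase of ERK, stood at 4.15 FPKM in 4C and 3.27 in 5C, against 1.75 in 4A and 1.82 in 5A (1.04 ± 0.11), AREG, a ligand of the EGF receptor, at 9.59 FPKM in 4C and 6.65 in 5C, against 4.27 in 4A and 4.15 in 5A (0.92 ± 0.14), and the PEA3 factor ETV4 at 11.8 FPKM in 4C and 14.4 in 5C, against 17.9 in 4A and 19.6 in 5A (-0.52 ± 0.12). In the list of YAP and TEAD targets 4 of 25 rose and 0 fell (median 0.12, with 4 members listed at 0). Those that rose were GADD45A, which responds to DNA damage and other stress (38.4 FPKM in 4C and 35.6 in 5C, against 20.1 in 4A and 19.9 in 5A, 0.89 ± 0.07), the kinase LATS2 (0.78 ± 0.11), TGFB2 (0.94 ± 0.13) and CTGF (0.96 ± 0.13). LATS2, TGFB2 and CTGF were low, at 2.16 to 4.06, 1.25 to 2.67 and 1.31 to 3.07 FPKM over the 4 libraries. CTGF is also on the immediate early list, and CYR61, the other classic target, did not pass (0.26 ± 0.26). MAP kinase feedback calls, higher and lower, were 1 and 0 without 4C and 3 and 0 without 5A. YAP target calls, higher and lower, were 2 and 0 without 4C.

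The FOXO and TXNIP list holds FOXO factors themselves as well as genes that they or low insulin signalling are known to induce. Of its 27 members 8 rose and 0 fell, against 4.51% and 6.74% of all genes (median 0.31, 0.17 in 4C and 0.28 in 5C). After PDK4 and ARRDC3 came BCL6, a transcriptional repressor (9.47 FPKM in 4C and 8.09 in 5C, against 5.01 in 4A and 5.47 in 5A, 0.74 ± 0.13), CITED2 (0.46 ± 0.09), RICTOR, the subunit that defines mTOR complex 2 (0.53 ± 0.10), and IRS2, an adaptor of the insulin receptor (0.63 ± 0.15). TXNIP, which restrains glucose uptake, did not pass (-0.24 ± 0.09, adjusted p = 0.103), and neither did FOXO1, FOXO3 or FOXO4. FOXO group calls, higher and lower, were 2 and 0 without 4C, 4 and 0 without 5C and 5 and 0 without 5A.

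Hypoxia genes made up most calls in the joint list of glycolysis and hypoxia. Of 31 members 8 rose and 1 fell (median 0.24), against 4.51% and 6.74% of all genes. ADM, a vasodilator peptide, stood at 12.1 FPKM in 4C and 8.999 in 5C, against 5.04 in 4A and 5.12 in 5A (1.04 ± 0.12), VEGFA, the angiogenic growth factor, at 62.3 FPKM in 4C and 54.7 in 5C, against 40.3 in 4A and 41.5 in 5A (0.51 ± 0.09), DDIT4, an inhibitor of mTOR complex 1, at 211 FPKM in 4C and 183 in 5C, against 124 in 4A and 125 in 5A (0.66 ± 0.08), and P4HA1, of collagen hydroxylation, at 86.4 FPKM in 4C and 65.9 in 5C, against 46.8 in 4A and 43.8 in 5A (0.74 ± 0.11). NDRG1 (0.61 ± 0.09), KDM3A (0.47 ± 0.10) and PDK1 (0.64 ± 0.16) rose as well. Among enzymes of glycolysis itself, ALDOC rose (0.60 ± 0.09), ENO1 fell (-0.28 ± 0.07) and the rest of the list did not pass. Glycolysis and hypoxia calls, higher and lower, were 2 and 0 without 4C, 8 and 0 without 5C, 8 and 0 without 4A and 9 and 0 without 5A.

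Cholesterol genes rose in 8 of 27 cases and fell in 2 (median 0.25, with lower medians of 0.10 in 4C and 0.16 in 5C alone). This list and that of fatty acid synthesis are read against 4.51% called higher and 6.74% called lower over all genes. The synthase HMGCS1 (46.6 FPKM in 4C and 31.7 in 5C, against 24.2 in 4A and 22.5 in 5A, 0.72 ± 0.13), the sterol oxidase MSMO1 (152 FPKM in 4C and 81.1 in 5C, against 44.8 in 4A and 42.9 in 5A, 1.34 ± 0.20) and INSIG1, which holds back SREBP processing (41.7 FPKM in 4C and 23.5 in 5C, against 14.8 in 4A and 14.8 in 5A, 1.08 ± 0.17), were all further from controls in 4C than in 5C. PMVK (-0.41 ± 0.10) and LSS (-0.45 ± 0.11), enzymes of the same pathway, fell. ACAT2 was called as well, but it was listed at 0 on all 4 control lanes and at 29.3 to 36.6 FPKM with construct 2. An exact 0 in these values can be an estimate that failed, so the direction of ACAT2 is uncertain, although it is counted among the genes that rose. For such all-or-none values, found in 7 called genes, no fold is given. In fatty acid synthesis 3 of 24 rose and 1 fell (median -0.08): ACSL4, ACSL3 and ELOVL5 rose and FASN, the synthase, fell (48.8 FPKM in 4C and 56.2 in 5C, against 70.6 in 4A and 71.7 in 5A, -0.44 ± 0.12). Cholesterol gene calls, higher and lower, were 1 and 1 without 4C, 8 and 1 without 5C, 8 and 1 without 4A and 7 and 0 without 5A. Fatty acid gene calls, higher and lower, were 0 and 0 without 4C, 0 and 0 without 5C, 3 and 0 without 4A and 1 and 0 without 5A.

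Of 25 histone genes 6 rose and 0 fell, against 4.51% and 6.74% of all genes. The median was 0.37 (0.45 in 4C and 0.25 in 5C). HIST1H1C, a linker histone, stood at 69.6 and 74.1 FPKM in 4C and 53.97 and 51.4 in 5C, against 26.5 and 28.4 in 4A and 29.7 and 28.1 in 5A (1.13 ± 0.12, adjusted p = 0.00193). HIST2H2BE stood at 10.8 FPKM in 4C and 5.31 in 5C, against 3.59 in 4A and 3.83 in 5A (1.03 ± 0.21), and HIST1H1E also rose. H3F3B, of replacement histone H3.3, stood at 309 FPKM in 4C and 243 in 5C, against 189.8 in 4A and 187 in 5A (0.54 ± 0.09), and H1F0 at 492 FPKM in 4C and 439 in 5C, against 359 in 4A and 362 in 5A (0.37 ± 0.07). HIST2H2AA3, which has a near-identical copy and is uncertain for that reason, stood at 23.1 FPKM in 4C and 16.4 in 5C, against 10.3 in 4A and 10.5 in 5A. Replication-dependent histone messages mostly lack a poly(A) tail, so that a poly(A) library holds only the part that has one. Histone calls, higher and lower, were 2 and 1 without 4C.

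Stress and death genes gave mixed counts, to be read against 4.51% called higher and 6.74% called lower over all genes. Of 27 p53 targets 6 rose and 1 fell (median 0.23). Besides GADD45A, BTG2 and CDKN1A, the death receptor TNFRSF10B (0.46 ± 0.09), CCNG1 (0.49 ± 0.10) and SESN2 (0.52 ± 0.12) rose, the repair gene XPC fell (-0.38 ± 0.11), and MDM2, a classic target, did not pass (-0.04 ± 0.09, adjusted p = 0.863). Among BCL2 family and apoptosis genes 3 of 29 rose and 0 fell (median 0.10): PMAIP1, or NOXA (19.7 FPKM in 4C and 20.1 in 5C, against 11.4 in 4A and 10.6 in 5A, 0.85 ± 0.12), BNIP3L (0.63 ± 0.09) and MCL1 (0.28 ± 0.07). In the ATF4 and amino acid response list 6 rose and 5 fell out of 38 (median -0.07). DDIT3, or CHOP, stood at 161 and 165 FPKM in 4C and 93.9 and 92.7 in 5C, against 58.3 and 55.9 in 4A and 59.9 and 61.9 in 5A (1.06 ± 0.16, adjusted p = 0.00507), and CHAC1 at 13.9 FPKM in 4C and 7.81 in 5C, against 5.51 in 4A and 5.84 in 5A, closer to controls in 5C. PPP1R15A (0.63 ± 0.14) rose, while CBS (-0.49 ± 0.09), SLC1A4 (-0.49 ± 0.10), SLC7A1 (-0.37 ± 0.07) and the transfer RNA synthetases IARS and EPRS fell. ASNS, a main ATF4 target, did not pass (0.05 ± 0.09). p53 target calls, higher and lower, were 1 and 0 without 4C, 6 and 0 without 4A and 6 and 0 without 5A. Apoptosis gene calls, higher and lower, were 1 and 0 without 4C and 2 and 1 without 5C. ATF4 list calls, higher and lower, were 2 and 0 without 4C, 5 and 1 without 5C and 5 and 3 without 5A.

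The next 3 lists are read against 4.51% called higher and 6.74% called lower over all genes. Of 26 chaperones and sensors of the endoplasmic reticulum 4 rose and 1 fell (median 0.04). HERPUD1, of protein disposal from that compartment, stood at 75.7 FPKM in 4C and 57.6 in 5C, against 41.8 in 4A and 43.2 in 5A (0.64 ± 0.10). DNAJB9 was called at 7.71 to 12.2 FPKM with construct 2. In controls it was listed at 0 on 1 lane of each library, and its remaining lanes had 3.90 FPKM in 4A and 3.72 in 5A. These zeros, too, can be failed estimates, and the call of DNAJB9 is uncertain for that reason. HSPA5, the main chaperone, did not pass (0.21 ± 0.11). Cytosolic heat shock genes had 1 of 24 higher and 3 lower (median -0.02), with the cochaperones STIP1 (-0.45 ± 0.07) and DNAJA1 (-0.46 ± 0.08) lower. NRF2 antioxidant genes had 1 of 28 higher and 2 lower (median -0.01), CAT, or catalase (0.39 ± 0.08), against PGD (-0.47 ± 0.08) and KEAP1 (-0.52 ± 0.12). Endoplasmic reticulum calls, higher and lower, were 1 and 1 without 4C and 2 and 0 without 5A. Heat shock calls, higher and lower, were 0 and 1 without 4C and 0 and 2 without 5C. NRF2 list calls, higher and lower, were 0 and 2 without 4C, 0 and 3 without 5C and 1 and 1 without 5A.

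KLK2, a kallikrein, stood at 3.47 FPKM in 4C and 4.48 in 5C, against 6.53 in 4A and 6.13 in 5A (-0.68 ± 0.13), and KLK4 at 86.6 FPKM in 4C and 94.7 in 5C, against 111 in 4A and 117 in 5A (-0.34 ± 0.08); NDRG1, ELL2 (0.66 ± 0.11) and SGK1 (0.53 ± 0.11) rose. GATA2, a zinc finger factor of the prostate lineage, stood at 41.95 and 42.4 FPKM in 4C and 57.8 and 58.9 in 5C, against 52.2 and 53.3 in 4A and 54.8 and 53.7 in 5A. It was under both controls in 4C and over both in 5C (-0.11 ± 0.13, adjusted p = 0.668). Of 14 lineage factors ELF3, an epithelial ETS factor (88.4 FPKM in 4C and 84.1 in 5C, against 49.8 in 4A and 48.7 in 5A, 0.81 ± 0.08), and SOX4 (39.7 FPKM in 4C and 32.8 in 5C, against 21.4 in 4A and 21.4 in 5A, 0.75 ± 0.11) rose and ETV4 fell (median 0.05). Lineage factor calls, higher and lower, were 1 and 0 without 4C, 2 and 2 without 5C and 2 and 0 without 5A.

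The remaining lists are read against 4.51% called higher and 6.74% called lower over all genes. Counts higher and lower were 1 and 0 of 31 for epithelial junctions and keratins (CLDN1, 0.46 ± 0.09; median 0.02), 2 and 1 of 28 for mesenchymal and TGF-beta response genes, of which 9 were listed at 0 (TWIST1, 0.51 ± 0.10, and TAGLN, -0.70 ± 0.15; median 0.00), and 1 and 1 of 16 for neuroendocrine genes (median 0.02). Interferon-stimulated genes had 1 of 32 higher (IFIT2, 0.58 ± 0.12) and 2 lower (OAS3, -0.62 ± 0.12, and DTX3L; median 0.02). In the NF-kB list NFKBIZ rose (0.54 ± 0.13) and NFKB1 fell (-0.60 ± 0.11), and the other 22 did not pass, 11 of them listed at 0 in all 4 libraries (median 0.00). Of 25 tubulins, stathmins and drug transporters 0 rose and 5 fell (median -0.05). They include ABCB1, the pump that exports docetaxel, at 87.6 FPKM in 4C and 108 in 5C, against 129 in 4A and 127 in 5A (-0.40 ± 0.10), and TUBA1B, an alpha-tubulin with near-identical relatives, at 846 FPKM in 4C and 675 in 5C, against 1038 in 4A and 1038 in 5A (-0.46 ± 0.08). Epithelial calls, higher and lower, were 0 and 0 without 4C and 0 and 1 without 5C. Mesenchymal calls, higher and lower, were 0 and 0 without 4C and 1 and 1 without 5C. Neuroendocrine calls, higher and lower, were 0 and 0 without 4C, 1 and 0 without 5C and 2 and 1 without 4A. Interferon calls, higher and lower, were 0 and 0 without 4C, 0 and 1 without 5C, 2 and 1 without 4A and 2 and 1 without 5A. NF-kB list calls, higher and lower, were 0 and 0 without 4C, 0 and 1 without 5C, 2 and 1 without 4A and 0 and 1 without 5A. Tubulin and transporter calls, higher and lower, were 0 and 1 without 4C, 0 and 3 without 4A and 0 and 2 without 5A.

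Of the lists, ribosomal protein genes showed the widest gap between the libraries of construct 2. Of 75 genes 72 were above both controls in 4C and 0 below, while in 5C 44 were below both controls and 25 above. The median difference from controls was 0.34 in 4C and -0.18 in 5C, and that of the mean 0.01. These genes held 17.7% and 17.8% of summed FPKM on the lanes of 4C and 11.4% and 11.7% on those of 5C, against 14.3% to 14.6% in controls. RPS12 stood at 1554 and 1495 FPKM in 4C and 274 and 429 in 5C, against 1068 and 1097 in 4A and 1095 and 1085 in 5A, and RPL34 at 346 and 347 FPKM in 4C and 94.3 and 92.2 in 5C, against 235 and 233 in 4A and 230.0 and 226 in 5A. Both lay above controls in 4C and below them in 5C. In the test of the mean, 10 genes of the list rose and 0 fell, among them RPL9, RPS3A and RPS7 (0.55 ± 0.07, 0.50 ± 0.09 and 0.51 ± 0.10). Without 4C 1 rose and 18 fell, and without 5C 9 and 0, so that the direction of this list depends on the library. Many have processed pseudogenes with near-identical sequence, and their values are uncertain for that reason too.

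The other genes with the largest differences between 5C and 4C were chosen by size and are given with no test. ATP5J2 and USMG5, subunits of ATP synthase, differed by -2.20 and -2.27 on the log2 scale; USMG5 stood at 489 FPKM in 4C and 101 in 5C, against 323 in 4A and 338 in 5A. PSME2, an activator of the proteasome, stood at 58.4 FPKM in 4C and 12.2 in 5C, against 61.96 in 4A and 57.8 in 5A. In the other direction ALB, the albumin gene, stood at 7.94 FPKM in 4C and 24.03 in 5C, against 27.99 in 4A and 27.2 in 5A, NEFH, a neurofilament gene, at 8.39 FPKM in 4C and 21.5 in 5C, against 17.5 in 4A and 17.7 in 5A, and the pseudogene RPL13AP6 and the small nucleolar RNA SNORA62 differed by 1.49 and 1.31. Respiratory chain genes as a list had medians of 0.08 in 4C and 0.02 in 5C, with 3 of 51 higher and 0 lower (overall median 0.04), and host genes of small nucleolar RNAs 0.14 and -0.10, with 3 of 17 higher and 1 lower (overall median 0.00). GAS5, one such host, stood at 543 FPKM in 4C and 199.6 in 5C, against 329 in 4A and 329 in 5A. Respiratory chain calls, higher and lower, were 0 and 2 without 4C. Host gene calls, higher and lower, were 0 and 0 without 4C, 1 and 1 without 4A and 1 and 0 without 5A.

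Transcript length moved with the library. Among genes of at least 5 FPKM, those with transcripts up to 600 bases had a median difference from controls of 0.17 in 4C and 0.07 in 5C (208 genes). Those of 600 to 1000 bases stood at 0.05 and 0.01 (719 genes), those of 1000 to 2000 bases at -0.09 and -0.01 (2375 genes), those of 2000 to 4000 bases at -0.15 and -0.02 (3355 genes) and longer ones at -0.12 and 0.01 (1762 genes). The control libraries differed from each other by -0.02 to 0.01 in these classes. Calls moved with length as well: 0.962% of the shortest class and 10.8% of the 2000 to 4000 class were called lower, against 5.77% and 4.59% called higher. The part of length in the gene lists was not tested; with transcripts over 1000 bases alone, a setting chosen after seeing the data, 572 genes were called higher and 938 lower.

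**Figure D4:**
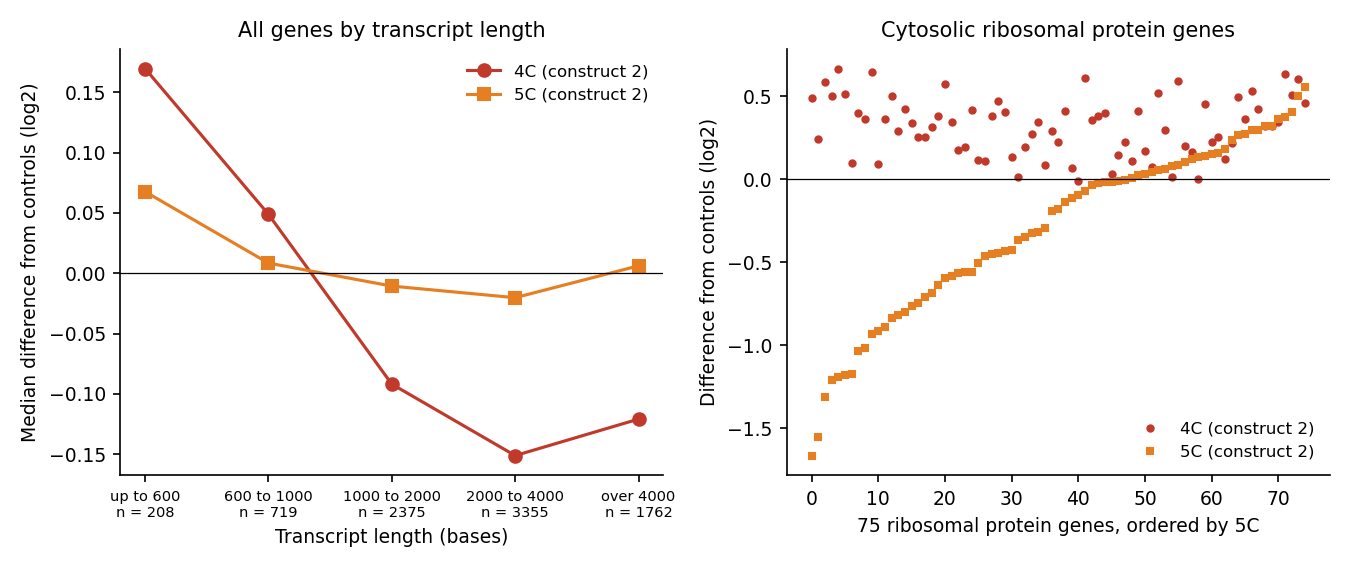
Left, median log2 difference of 4C and of 5C from controls for genes of at least 5 FPKM, by transcript length in bases. Right, log2 difference from controls of each of 75 ribosomal protein genes in 4C and 5C, ordered by 5C. The medians of 4C fall from 0.17 in the shortest class to -0.15 in transcripts of 2000 to 4000 bases, and those of 5C stay between 0.07 and -0.02; ribosomal protein genes lie mostly above 0 in 4C and on both sides of it in 5C.

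**Figure D5:**
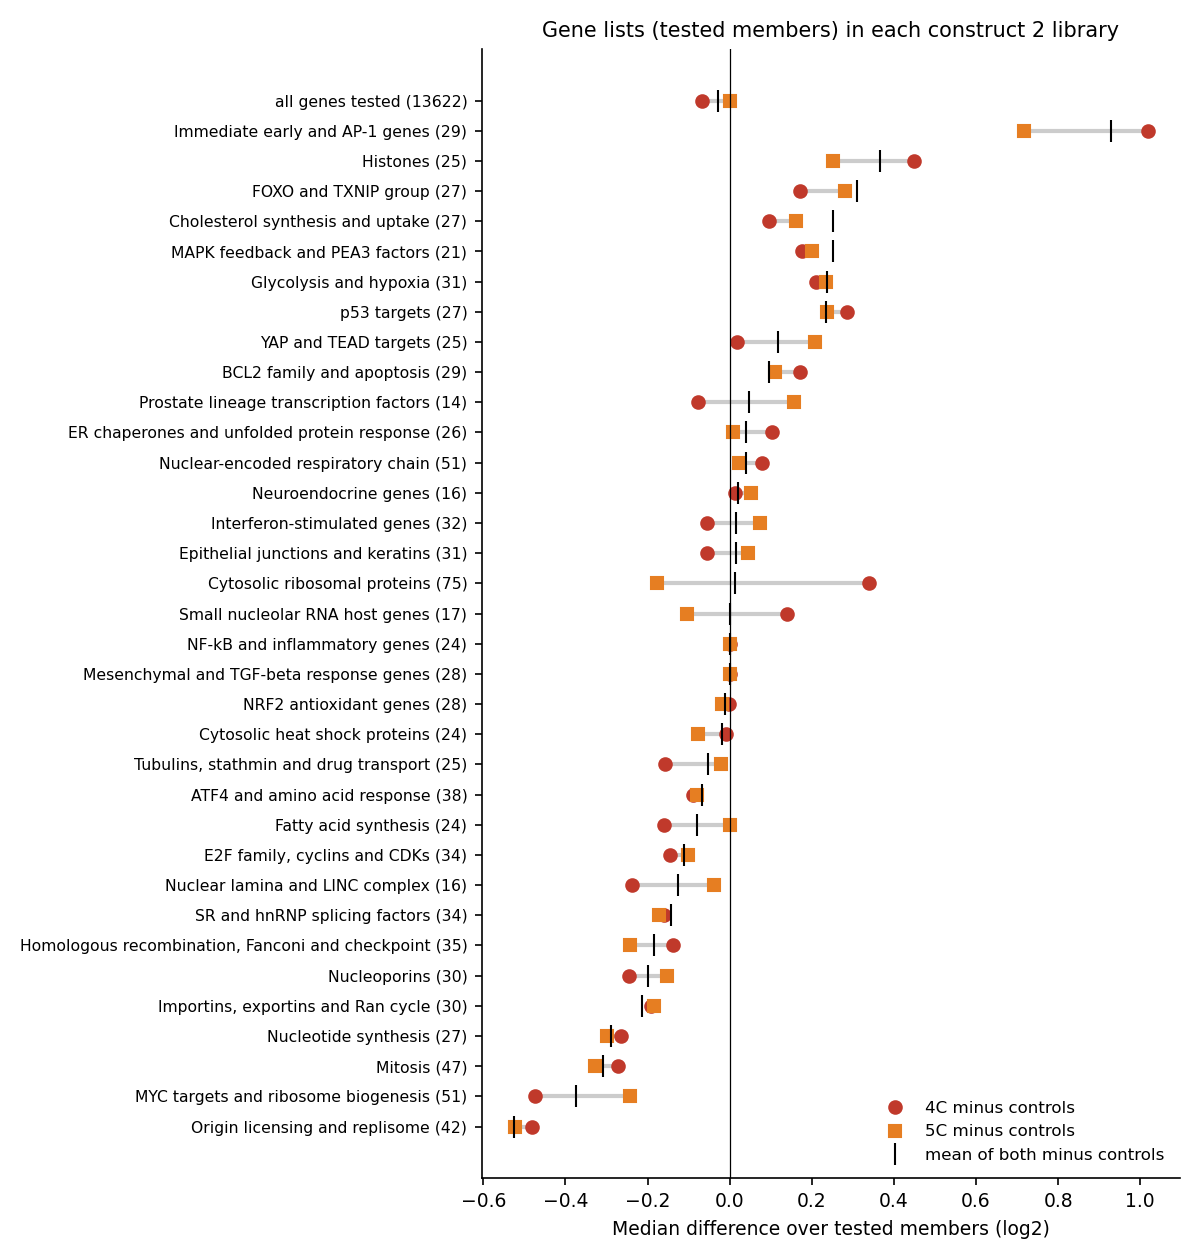
Median log2 difference from controls over the tested members (number in brackets) of each gene list plotted, for 4C, for 5C and for their mean, with all genes tested on the top row. Not every list is plotted, and the cell type marker lists are among those left out. The replisome list has the lowest median (-0.53) and immediate early genes the highest (0.93), with 4C and 5C on the same side for both; the widest gap between the libraries is that of ribosomal protein genes, at 0.34 and -0.18.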

How the data were processed

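RNA-seq values of 24 samples (12 libraries, 2 lanes each) were used. The authors deposited log2 FPKM with values at or under 1 FPKM set to 0; they give no counts, so depth and counting error are unknown. The submitters' processing notes name TopHat, Cufflinks and the builds hg19 and mm10, with no versions. Lanes of a library were averaged on the log2 scale. Of 25277 symbols, 13622 were tested: those above the floor on both lanes of at least 2 libraries, with the line of highest mean kept for the 605 repeated symbols. limma 3.58.1 in R 4.3.3 was fitted to all 12 libraries in 6 groups, with 1 precision weight per group, trend and robust moderation, 2-sided tests and Benjamini-Hochberg adjustment over all symbols tested. Because the deposited scale is log2 FPKM with a floor, changes of low genes are understated. No set test was run, and lists are described by counts and medians. The members and the 38 gene lists were chosen with earlier results of these data known. Genes named by rule were the 15 highest and 15 lowest called genes of at least 5 FPKM, up to 4 members of each list with the smallest p, the 5 largest differences each way between 5C and 4C, and POM121, POM121C, E2F1, MYC and GATA2, less a few genes not reported here; other list members were named after their values were seen. Promoters came from RefSeq, build GRCh38.p14.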

Additional observations from a re-analysis of the deposited data

How the results depend on the processing

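The count of called genes was 1328 with a pseudocount of 1 FPKM, 1114 with 0.1, 1494 with no filter, 1235 with the stricter filter, 1141 and 1211 on single lanes and 1512 without repeated symbols. With 1 spread for the 6 groups limma called 4783 genes, 1981 higher and 2802 lower. With the 4 libraries compared, also without group weights, it called 0, 0 higher and 0 lower. POM121 (-2.43) did not pass there (adjusted p = 0.0596). Quantile normalization called 2174 genes, 1101 higher. The 22Rv1DR libraries alone, fitted without group weights, gave 1516 (852 higher and 664 lower), of which 759 were among the 1532. Leaving out 1 library gave 199 to 1337 called genes, 68 to 624 higher and 131 to 769 lower. The shared library number is no known pairing: the deviations of 4A from 5A and of 4C from 5C correlated at -0.0466 across 13622 genes. With the number as a replicate block 1819 genes were called, 712 higher and 1107 lower, and 1469 of the 1532 stayed called.

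In any single other setting, most list medians moved by less than the spread between libraries. Taken over all settings, most lists moved by more than that at least once, and these cases follow. With pseudocount 1 medians were -0.47 (Origin licensing and replisome), 0.22 (MAPK feedback and PEA3 factors), 0.20 (BCL2 family and apoptosis), 0.19 (Glycolysis and hypoxia), 0.16 (Cholesterol synthesis and uptake). With quantile normalization medians were -0.45 (Origin licensing and replisome), -0.23 (Nucleotide synthesis), -0.0742 (E2F family, cyclins and CDKs), -0.24 (Mitosis), -0.17 (Importins, exportins and Ran cycle), 0.19 (MAPK feedback and PEA3 factors), 0.0605 (Neuroendocrine genes), 0.30 (p53 targets), -0.0339 (ATF4 and amino acid response). With higher-numbered lane medians were -0.49 (Origin licensing and replisome), -0.32 (Nucleotide synthesis), -0.23 (Importins, exportins and Ran cycle), 0.20 (MAPK feedback and PEA3 factors), -0.0882 (ATF4 and amino acid response), 0.18 (Cholesterol synthesis and uptake). With transcripts over 1000 bases only, chosen after seeing the data, medians were -0.0298 (Nuclear-encoded respiratory chain), 0.18 (Cholesterol synthesis and uptake). With lower-numbered lane medians were 0.17 (MAPK feedback and PEA3 factors), 0.15 (BCL2 family and apoptosis), -0.0879 (ATF4 and amino acid response), -0.028 (NRF2 antioxidant genes), 0.19 (FOXO and TXNIP group), 0.19 (Cholesterol synthesis and uptake). With repeated symbols left out medians were 0.19 (MAPK feedback and PEA3 factors). With stricter filter medians were -0.0476 (NF-kB and inflammatory genes), 0.0464 (Mesenchymal and TGF-beta response genes), 0.14 (BCL2 family and apoptosis). With pseudocount 0.1 medians were 0.21 (BCL2 family and apoptosis). With no filter medians were 0.18 (Cholesterol synthesis and uptake). Leaving out 1 library gave medians of -0.52 to -0.48 (Origin licensing and replisome), -0.32 to -0.26 (Nucleotide synthesis), -0.14 to -0.0664 (E2F family, cyclins and CDKs), 0.20 to 0.45 (Histones), -0.24 to -0.18 (Importins, exportins and Ran cycle), 0.13 to 0.20 (MAPK feedback and PEA3 factors), 0.0134 to 0.0521 (Neuroendocrine genes), -0.0554 to 0.0459 (Epithelial junctions and keratins), 0.19 to 0.29 (p53 targets), 0.10 to 0.17 (BCL2 family and apoptosis), -0.11 to -0.0772 (ATF4 and amino acid response), -0.0781 to 0.00582 (Cytosolic heat shock proteins), 0.20 to 0.24 (Glycolysis and hypoxia), 0.17 to 0.31 (FOXO and TXNIP group), 0.10 to 0.24 (Cholesterol synthesis and uptake), -0.16 to -0.0219 (Tubulins, stathmin and drug transport). Of genes that were not called, the sign turned for CAV1 (0.0454, higher-numbered lane only), FOXO3 (0.015, quantile normalization), GAS5 (-0.0763, quantile normalization), GAS5 (-0.0056, lower-numbered lane only), HOXB13 (0.00496, quantile normalization), MDM2 (0.0425, quantile normalization). Without 1 library the values turned sign in ACTA2 (-0.39 to 0.0188), ASNS (-0.10 to 0.20), ATF4 (-0.18 to 0.0214), ATP5J2 (-1.82 to 0.38), BCL2 (-0.033 to 0.30), CAV1 (-0.20 to 0.0909), CCNE2 (-0.19 to 0.33), COL1A1 (-0.00671 to 0.10), CYR61 (-0.047 to 0.57), FOXO3 (-0.12 to 0.0646), GAS5 (-0.72 to 0.72), GATA2 (-0.34 to 0.12), HOXB13 (-0.14 to 0.0282), KRT8 (-0.0895 to 0.13), MBP (-0.18 to 0.0766), MDM2 (-0.16 to 0.0734), NEFH (-1.07 to 0.29), RPL34 (-1.31 to 0.58), RPS12 (-1.66 to 0.49), RRM2 (-0.49 to 0.16), SNORA62 (-0.96 to 0.35), USMG5 (-1.70 to 0.57). The cause was not tested.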
